A study of Arabidopsis thaliana with 12 samples.

Results

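Genes for proteins of the cytosolic ribosome of Arabidopsis thaliana were taken by locus from a list of 45, out of the 24035 genes that the 12 libraries list between them; a gene absent from a library was read as 0. The list covered 19 genes of the small subunit and 26 of the large subunit in 28 protein families, of which 11 families were held by 2 of the genes, 3 families by 3 and 14 by 1. All 45 are annotated as structural constituents of the ribosome. Paralogs are named by letter, in the customary Arabidopsis way, and 22 of the 45 carry only their locus as a symbol in the annotation.

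A ribosome of the plant cytosol joins a small subunit, which holds and decodes the messenger RNA, and a large subunit, which links amino acids and passes the chain out through a tunnel. Each protein of it is encoded by several nuclear genes, so a given ribosome can carry 1 paralog or another. The genes are among the most strongly transcribed of growing tissue, their transcript levels are tied to sugar and nutrient supply through the TOR kinase, and Arabidopsis plants that lack single paralogs often have pointed or narrow first leaves. Poly(A) RNA levels carry no measure of the number of ribosomes.

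The samples were whole seedlings, 10 days old, in 4 groups of 3 libraries. The WT dehydrated and cost1 dehydrated groups were wild-type and cost1 mutant seedlings left to dehydrate in a petri dish for 6 h (labelled drought), and the WT control and cost1 control groups were seedlings of the same genotypes and age without that treatment. The question was how growth and drought tolerance depend on COST1, a protein that restrains autophagy by the series title. The labels give no ecotype and no allele for cost1, and nothing in them states that replicate libraries of a group are from different plants. The p-values therefore rest on a spread between libraries that may be technical.

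The deposited expected counts summed to between 5884728 and 6223687 per library. COST1 (AT2G45260), the gene named by the mutant's label, had 55.2, 61.2 and 58.3 expected counts in cost1 dehydrated and 189.8, 150.0 and 148.1 in WT dehydrated libraries, and 50.2, 46.5 and 36.2 in cost1 control against 171.2, 216.1 and 185.0 in WT control libraries. It was therefore lower in every library labelled cost1, though not at 0. On the first principal component, cost1 control replicate 2 lay at −50.4, while the remaining 5 control libraries lay at −91.1 to −86.7 and the dehydrated libraries lay between 60.1 and 114. The 4 leaf cell markers had group means of 1116 to 11237 FPKM. Of the 4 root markers, SCR had group means of 9.03 to 17.5 FPKM and SHR of 3.17 to 7.3 FPKM, while PIN2 and CASP1 had group means of 0.06 to 0.737 FPKM.

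The 45 genes were expressed at very unequal levels, given here in FPKM, the authors' deposited values scaled by transcript length and library total. By group mean, the median of the 45 genes was 205 FPKM in WT dehydrated libraries (quartiles 111 and 239) against 274 FPKM in WT control libraries (quartiles 167 and 326). It was 176 FPKM in cost1 dehydrated libraries (quartiles 89.3 and 204) against 264 FPKM in cost1 control libraries (quartiles 159 and 304). RPS8A (AT5G20290), a small-subunit protein, had the highest mean over the 12 libraries, with 424, 504 and 451 FPKM in WT dehydrated, against 576, 590.4 and 608 FPKM in WT control libraries. Dehydrated cost1 libraries had 369, 364 and 434 FPKM of RPS8A, against 548, 507 and 559 FPKM in cost1 control libraries. No dehydrated library of either genotype reached the level of a control library. RPL3A (AT1G43170), whose family reaches towards the peptidyl transferase centre, came next, with 347, 421 and 369 FPKM in WT dehydrated, against 449, 486 and 476 FPKM in WT control libraries. The cost1 dehydrated libraries had 309, 307 and 361 FPKM of RPL3A, against 449, 426 and 479.6 FPKM in cost1 control libraries. After it came RPL10A (AT1G14320), known as SAC52 and as a substrate of the antiviral receptor kinase NIK1, with 279, 356 and 322 FPKM in WT dehydrated, against 407, 419.5 and 444 FPKM in WT control libraries. Its values were 284, 306 and 308 FPKM in cost1 dehydrated, against 408, 398 and 417 FPKM in cost1 control libraries. For RPL3A and RPL10A too, every dehydrated library lay below every control library of its genotype. On the log2 scale RPS8A changed by −0.22 ± 0.11 (SE, adjusted p = 0.132) in WT and −0.32 ± 0.11 (SE, adjusted p = 0.033) in cost1, and RPL10A by −0.26 ± 0.12 (SE, adjusted p = 0.087) and −0.29 ± 0.12 (SE, adjusted p = 0.0534), so that of these 4 values only that of RPS8A in cost1 passed the test described below for all genes. That call was lost in 11 of the alternative fits. At the low end stood RPS8B (AT5G59240), the paralog of the most abundant gene, with 1.84, 0.19 and 0.56 FPKM in WT dehydrated, against 0.92, 0.92 and 0.76 FPKM in WT control libraries. For cost1, RPS8B was at 0.56, 2.04 and 0.37 FPKM in dehydrated, against 1.35, 0.55 and 1.29 FPKM in control libraries. It was the 1 gene of the 45 that did not pass the filter on low counts, and its groups overlapped. Above it came RPP0A (AT2G40010) and RPL11A (AT2G42740), a P0 and an L11 protein whose values are given with the large subunit. Apart from these and from RPL3B and RPP0C (AT3G11250), with means of 21.2 and 22.9 FPKM, every gene had a mean of at least 89.9 FPKM.

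**Figure D1:**
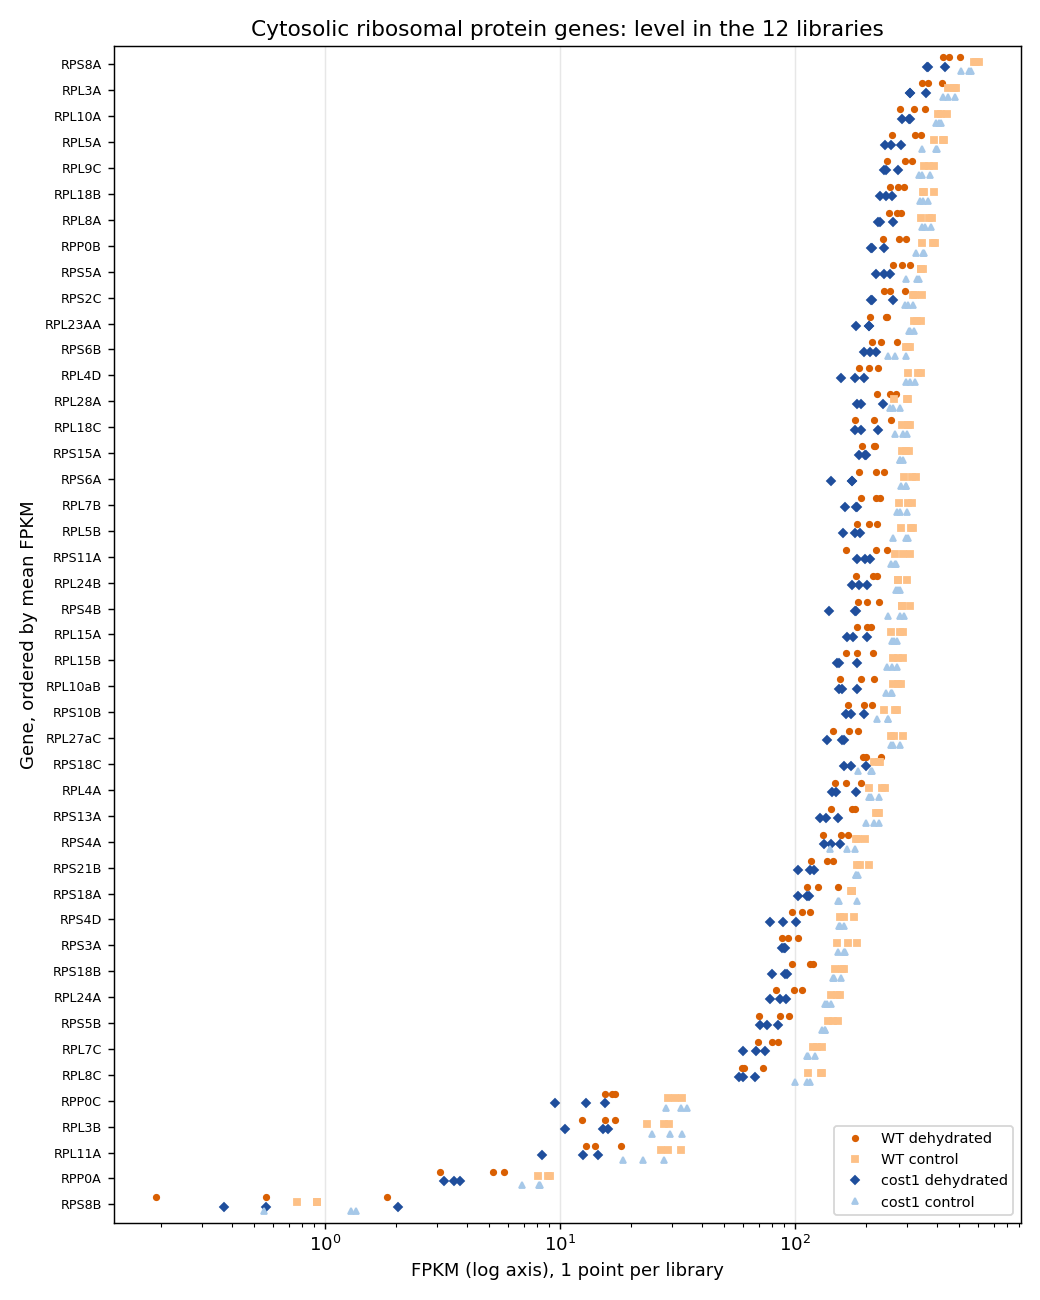
Level of each of the 45 genes (rows, ordered by mean FPKM) in the 12 libraries, on a logarithmic FPKM axis with 1 point per library and a symbol and colour per group. Of the 45 genes, 40 have means of 89.9 to 495 FPKM, RPS8B lies near 1 FPKM, and in most rows the darker dehydrated points lie left of the lighter control points.

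Taken as a sum, transcripts of the 45 genes made up a smaller share of the counts after dehydration in both genotypes. They held 0.813%, 1.00% and 0.926% of the summed expected counts in WT dehydrated libraries, against 1.20%, 1.29% and 1.29% in WT control libraries. In cost1 they held 0.782%, 0.739% and 0.865% in dehydrated libraries, against 1.19%, 1.13% and 1.22% in control libraries. The dehydrated and control libraries did not overlap in either genotype. The median of the 45 genes within a library was 180.1, 217 and 202 FPKM in WT dehydrated against 261, 275 and 286 FPKM in WT control libraries, and 175, 156 and 184 FPKM in cost1 dehydrated against 262, 249 and 265 FPKM in cost1 control libraries. The 172 other cytosolic ribosomal protein genes listed here held 1.59%, 1.95% and 1.79% of the counts in WT dehydrated against 2.32%, 2.49% and 2.50% in WT control libraries, a difference of the same direction. In seedling RNA, fewer cells of a type and less of a transcript per cell cannot be told apart.

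**Figure D2:**
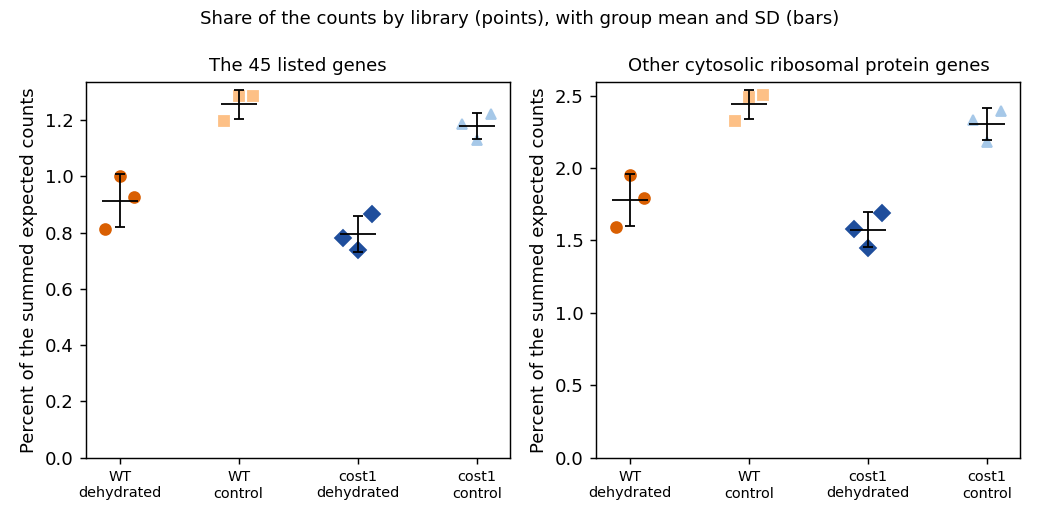
Share of the summed expected counts, in percent, held by the 45 genes (left) and by the other cytosolic ribosomal protein genes (right) in each library, with the group mean and SD. The 6 dehydrated libraries lie between 0.739% and 1.00% for the 45 genes, below the 6 control libraries at 1.13% to 1.29%.

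Gene by gene, 44 of the 45 passed the filter and were tested with edgeR's quasi-likelihood test, with Benjamini-Hochberg adjustment over the 18809 genes tested. In WT, 27 of the 44 were lower after dehydration and 0 were higher, where 20.6% of all genes tested were lower and 24.9% were higher. In cost1, 35 of the 44 were lower and 0 higher, where 24.5% of all genes tested were lower and 26.4% were higher. DESeq2 likewise called 0 higher in both, and among the 44 genes 33 in WT and 39 in cost1 had an unadjusted p under 0.05, as did 52.9% of all genes tested in WT and 57% in cost1. The median log2 change of the 44 genes, dehydrated over control, was −0.33 in WT, a change of −20.2%, with quartiles of −0.48 and −0.27. In cost1 it was −0.46, a change of −27.2%, with quartiles of −0.63 and −0.32. Over all genes tested the median was −0.02 in WT and −0.04 in cost1. The WT count rested on single libraries: it was 15 without WT dehydrated replicate 1, 16 without WT control replicate 3 and 17 without WT control replicate 2.

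These changes are relative to library scaling by TMM, which assumes that most genes do not change. When counts were scaled by the library total alone, all genes tested had a median of −0.16 in WT and −0.19 in cost1. The 44 genes then had medians of −0.47 and −0.61, and 39 genes were lower in WT and 42 in cost1. FPKM values carry no such scaling, and differences between them are larger by about that shift than the log2 changes printed beside them.

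At least 1 gene was lower in 20 of the 28 families in WT and in 23 of the 28 in cost1. Of the small-subunit genes tested, 8 of 18 were lower in WT and 12 of 18 in cost1, with medians of −0.29 and −0.40. Of the large-subunit genes, 19 of 26 were lower in WT and 23 of 26 in cost1, with medians of −0.33 and −0.47. The 27 genes lower in WT were all among the 35 lower in cost1, and 8 genes were called in cost1 alone. More of all genes tested were lower in cost1 too, at 24.5% against 20.6% in WT. No background is given here for the overlap or for the family counts. No gene of the 44 passed the test of a difference between the 2 responses, given below.

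**Figure D3:**
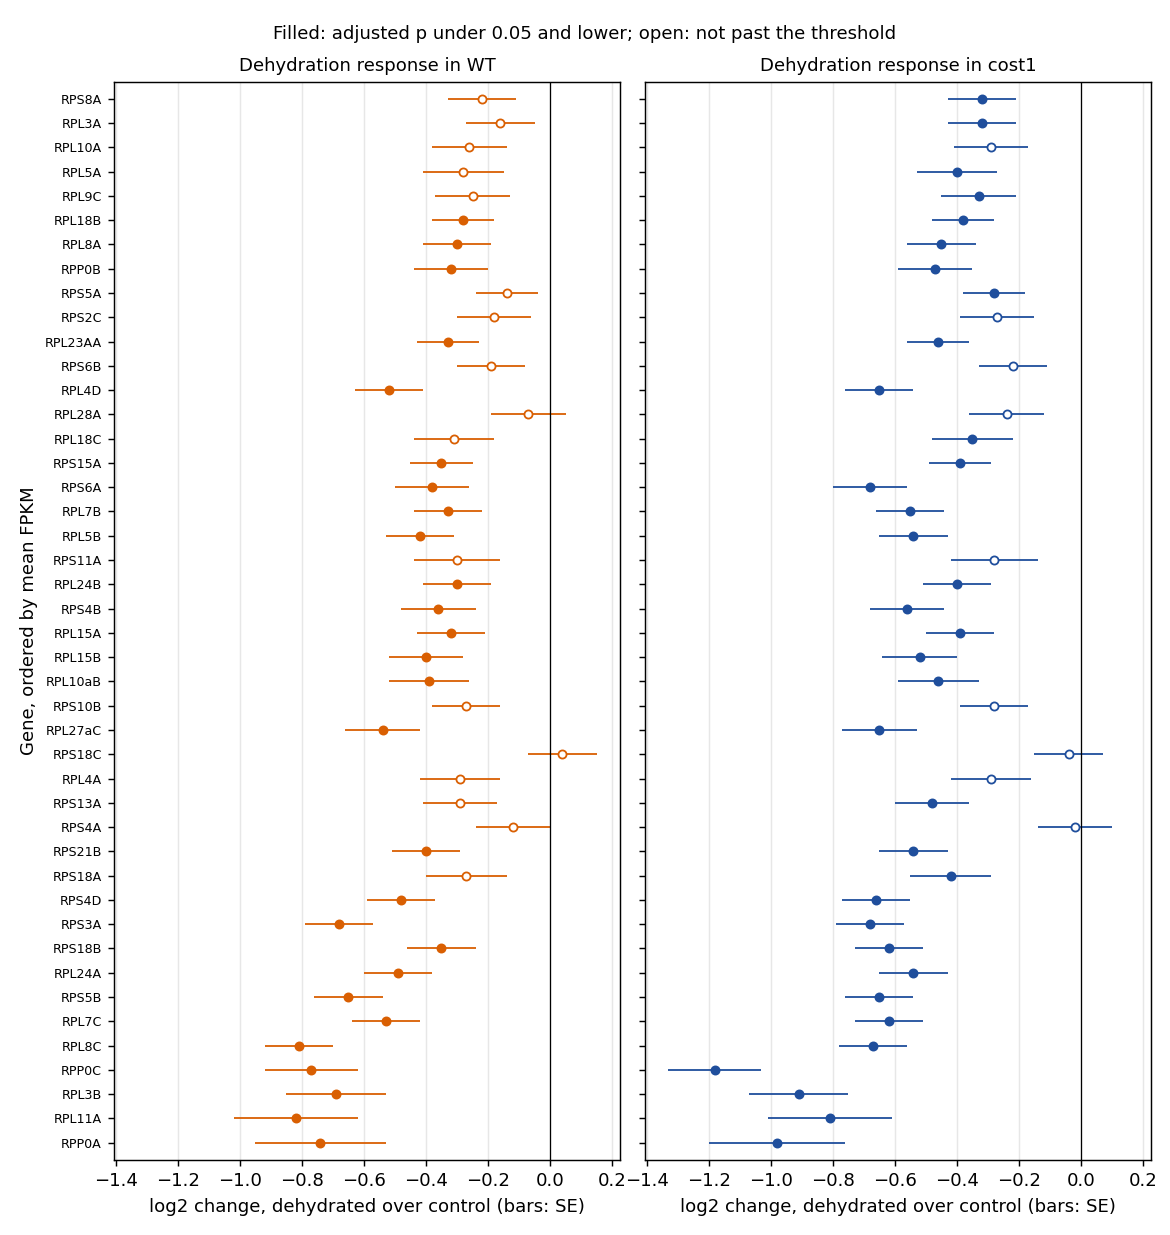
Log2 change, dehydrated over control, of the 44 tested genes in WT (left) and cost1 (right), with the standard error as a bar and genes ordered by mean FPKM from top to bottom. Filled points are lower at an adjusted p under 0.05 (27 in WT, 35 in cost1), open points are not past the threshold, and the 4 genes under 50 FPKM at the bottom lie at −0.69 or below in WT and −0.81 or below in cost1.

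Within the large subunit, the P0 proteins form the base of the stalk that receives elongation factors, and their 3 genes were far apart in level. RPP0B (AT3G09200) carried most of the transcripts, with 237, 297 and 275 FPKM in WT dehydrated libraries, against 346, 392 and 387 FPKM in WT control libraries, and 212, 210.1 and 239 FPKM in cost1 dehydrated libraries, against 328, 352 and 349.6 FPKM in cost1 control libraries. All its dehydrated libraries lay below all control libraries, and its log2 change was −0.32 ± 0.12 (SE, adjusted p = 0.0441) in WT and −0.47 ± 0.12 (SE, adjusted p = 0.00596) in cost1. RPP0C (AT3G11250) had 17.1, 15.5 and 16.7 FPKM in WT dehydrated libraries, against 28.8, 33.1 and 30.9 FPKM in WT control libraries. In cost1 it had 15.5, 9.49 and 12.9 FPKM in cost1 dehydrated libraries, against 28.1, 32.6 and 34.7 FPKM in cost1 control libraries, the lowest value being that of replicate 2. Its change was −0.77 ± 0.15 (SE, adjusted p = 0.00131) in WT and −1.18 ± 0.15 (SE, adjusted p = 6.8e-05) in cost1, the most negative of the 44 genes in cost1. RPP0A (AT2G40010) had 3.07, 5.78 and 5.19 FPKM in WT dehydrated, against 8.91, 9.07 and 8.06 FPKM in WT control libraries. Dehydrated cost1 libraries had 3.76, 3.53 and 3.2 FPKM of RPP0A, against 8.17, 6.85 and 8.09 FPKM in cost1 control libraries, again without overlap between dehydrated and control libraries. It changed by −0.74 ± 0.21 (SE, adjusted p = 0.0131) in WT and −0.98 ± 0.22 (SE, adjusted p = 0.00298) in cost1, but 42.2% of its 49-base windows lie in an overlapping annotated locus (AT2G40008), so its reads cannot be assigned to it with certainty. Its expected count was fractional in 0 of the 12 libraries.

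The proteins L5 and L11 bind the 5S ribosomal RNA in yeast before they join the large subunit. RPL11A (AT2G42740), whose symbol in the annotation is RPL16A, had 14.1, 18.1 and 12.9 FPKM in WT dehydrated, against 28.8, 26.8 and 32.6 FPKM in WT control libraries. The cost1 dehydrated libraries had 14.5, 8.36 and 12.5 FPKM of RPL11A, against 27.8, 18.6 and 22.5 FPKM in cost1 control libraries. Every dehydrated library was below every control library, and its change was −0.82 ± 0.20 (SE, adjusted p = 0.0056) in WT, the most negative there, and −0.81 ± 0.20 (SE, adjusted p = 0.00649) in cost1. It shares 8.39% of its 49-base windows with its paralog AT3G58700, so part of its count depends on how the authors divided shared reads. RPL5A (AT3G25520), mutated in the leaf-shape mutant piggyback3, had 257, 345 and 322 FPKM in WT dehydrated, against 391, 425 and 429 FPKM in WT control libraries. Its values were 257, 240.2 and 282 FPKM in cost1 dehydrated, against 399, 346 and 400.1 FPKM in cost1 control libraries. It did not pass the threshold in WT, at −0.28 ± 0.13 (SE, adjusted p = 0.0858), and was lower in cost1, at −0.40 ± 0.13 (SE, adjusted p = 0.019). RPL5B (AT5G39740) was lower in both, at −0.42 ± 0.11 (SE, adjusted p = 0.00844) in WT and −0.54 ± 0.11 (SE, adjusted p = 0.00166) in cost1.

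Proteins L3 and L8 (L2 in bacteria) line the region of the peptidyl transferase centre. RPL3B (AT1G61580) had 15.5, 17.1 and 12.4 FPKM in WT dehydrated, against 23.4, 29.1 and 27.7 FPKM in WT control libraries. For cost1, RPL3B was at 15.9, 10.5 and 15.2 FPKM in dehydrated, against 29.4, 24.6 and 33 FPKM in control libraries, with no overlap between dehydrated and control libraries. Its log2 change was −0.69 ± 0.16 (SE, adjusted p = 0.00426) in WT and −0.91 ± 0.16 (SE, adjusted p = 0.000663) in cost1. The abundant RPL3A was not called in WT, at −0.16 ± 0.11 (SE, adjusted p = 0.267), and was lower in cost1, at −0.32 ± 0.11 (SE, adjusted p = 0.0342), a call that was lost in 11 of the alternative fits. RPL8C (AT4G36130) had 60.6, 72.8 and 59.2 FPKM in WT dehydrated, against 114, 129.5 and 129 FPKM in WT control libraries. Dehydrated cost1 libraries had 60.2, 57.5 and 67.3 FPKM of RPL8C, against 112, 99.5 and 116 FPKM in cost1 control libraries, with the 6 dehydrated libraries all under 75 FPKM. It changed by −0.81 ± 0.11 (SE, adjusted p = 0.00012) in WT and −0.67 ± 0.11 (SE, adjusted p = 0.000385) in cost1, and 21.6% of its 49-base windows are shared with an overlapping locus (AT4G36140). Its paralog RPL8A (AT2G18020), named EMB2296 for the embryo arrest of its mutant, had 250, 270.1 and 282 FPKM in WT dehydrated, against 344, 380.5 and 371 FPKM in WT control libraries. The cost1 dehydrated libraries had 224, 229 and 260.3 FPKM of RPL8A, against 348, 355 and 379 FPKM in cost1 control libraries. The groups did not overlap in either genotype, and RPL8A changed by −0.30 ± 0.11 (SE, adjusted p = 0.0367) in WT and −0.45 ± 0.11 (SE, adjusted p = 0.00458) in cost1.

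Around the exit tunnel, RPL4D (AT5G02870) changed by −0.52 in WT and −0.65 in cost1 on the log2 scale, and RPL23AA (AT2G39460) by −0.33 and −0.46, all called lower. RPL27aC (AT1G70600) was likewise lower in both, at −0.54 and −0.65. RPL24B (AT3G53020), known as STV1 and needed for reinitiation of translation on messages with upstream reading frames, changed by −0.30 ± 0.11 (SE, adjusted p = 0.0432) in WT and −0.40 ± 0.11 (SE, adjusted p = 0.0112) in cost1, and RPL24A (AT2G36620) by −0.49 and −0.54. Other genes of the piggyback leaf mutants are RPL10aB (AT2G27530), which was lower in both genotypes at −0.39 and −0.46, and RPL9C (AT1G33140), which was lower in cost1 alone at −0.33. RPL9C shares 54.2% of its 49-base windows with AT1G33120 and is uncertain for that reason. Also lower in both were RPL7B (AT2G01250), RPL7C (AT2G44120), RPL15A (AT4G16720), RPL15B (AT4G17390) and RPL18B (AT3G05590), whose 10 changes ran from −0.62 to −0.28. RPL18C (AT5G27850) was called in cost1 alone, at −0.35 against −0.31 in WT.

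In the small subunit, S6 is the protein that S6 kinase phosphorylates downstream of TOR. RPS6A (AT4G31700) had 187, 239.6 and 221 FPKM in WT dehydrated libraries, against 292, 326 and 316 FPKM in WT control libraries. In cost1 it had 175, 143 and 174 FPKM in cost1 dehydrated libraries, against 298, 282 and 295 FPKM in cost1 control libraries. Every dehydrated library was below every control library, and the change was −0.38 ± 0.12 (SE, adjusted p = 0.0202) in WT and −0.68 ± 0.12 (SE, adjusted p = 0.0006) in cost1. RPS6B (AT5G10360), whose mutant arrests as an embryo, passed the threshold in neither, at −0.19 ± 0.11 (SE, adjusted p = 0.193) and −0.22 ± 0.11 (SE, adjusted p = 0.12).

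RPS3A (AT2G31610), of the family at the entry of the messenger RNA channel, changed by −0.68 ± 0.11 (SE, adjusted p = 0.000321) in WT and −0.68 ± 0.11 (SE, adjusted p = 0.000299) in cost1. RPS5B (AT2G37270) had 70.1, 94.5 and 85.9 FPKM in WT dehydrated, against 137, 153 and 146 FPKM in WT control libraries. Its values were 75.7, 71 and 84.4 FPKM in cost1 dehydrated, against 135, 129.7 and 134 FPKM in cost1 control libraries. Its dehydrated and control libraries did not overlap, and it changed by −0.65 ± 0.11 (SE, adjusted p = 0.000709) in WT and −0.65 ± 0.11 (SE, adjusted p = 0.000695) in cost1. RPS4D (AT5G58420) had 97.3, 116 and 107 FPKM in WT dehydrated, against 155, 179 and 162 FPKM in WT control libraries. For cost1, RPS4D was at 89, 77.8 and 101 FPKM in dehydrated, against 155, 154 and 161 FPKM in control libraries. Again no libraries overlapped, and RPS4D changed by −0.48 ± 0.11 (SE, adjusted p = 0.00405) in WT and −0.66 ± 0.11 (SE, adjusted p = 0.000493) in cost1. RPS15A (AT1G04270) and RPS21B (AT3G53890) were lower in both genotypes, at −0.35 and −0.40 in WT and −0.39 and −0.54 in cost1. The annotation gives AT1G04270, of the S15 family, the symbol RPS15, and gives RPS15A to AT1G07770 of the S15a family. RPS13A (AT4G00100), known as PFL2 for the pointed first leaves of its mutant, was called in cost1 alone, at −0.48, against −0.29 in WT.

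Called in neither genotype were 9 genes: RPS6B, RPL4A (AT3G09630), RPL10A, RPS18C, RPL28A (AT2G19730), RPS10B (AT5G41520), RPS11A (AT3G48930), RPS2C (AT2G41840) and RPS4A. Of these, RPS18C (AT4G09800) and RPS4A (AT2G17360) were nearest to no change in cost1, and RPS18C and RPL28A in WT, where RPL28A changed by −0.07 ± 0.12 (SE, adjusted p = 0.68). RPS18C had 195, 232 and 201 FPKM in WT dehydrated, against 217, 229.6 and 228 FPKM in WT control libraries. Dehydrated cost1 libraries had 174, 161 and 199 FPKM of RPS18C, against 211, 185 and 213 FPKM in cost1 control libraries, and its dehydrated and control libraries overlapped in both genotypes. Its change was 0.04 ± 0.11 (SE, adjusted p = 0.758) in WT and −0.04 ± 0.11 (SE, adjusted p = 0.788) in cost1, where the WT value turned to −0.10 without scaling beyond the total and to −0.11 on the FPKM scale. RPS4A had 132, 168 and 157 FPKM in WT dehydrated, against 181, 198 and 185 FPKM in WT control libraries. The cost1 dehydrated libraries had 142, 132 and 155 FPKM of RPS4A, against 179.7, 141 and 166 FPKM in cost1 control libraries, with overlap in cost1 and none in WT. Its change was −0.12 ± 0.12 (SE, adjusted p = 0.431) in WT and −0.02 ± 0.12 (SE, adjusted p = 0.921) in cost1, and the cost1 value ranged from −0.08 to 0.06 when single libraries were left out. The other 7 lay between −0.30 and −0.07 in both genotypes.

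A call in 1 paralog and none in another does not test a difference between them. The genes of a family were therefore set against each other within each library. The measure was the log2 ratio of their CPM (counts scaled by TMM library size) plus 0.5, a quantity that library scaling leaves nearly unchanged. Of 20 pairs in 14 families, 15 had a ratio that moved with dehydration, in 12 families (exact permutation test, 2-sided, within genotype over 400 exchanges, smallest possible p 0.005, adjusted over the 20 pairs). Pairs within a family of 3 share a gene and are not independent. Ratios of other gene pairs were not tested, so the count has no background beside it. Of all genes tested, 52.9% in WT and 57% in cost1 had an unadjusted p under 0.05 for dehydration (edgeR). Whether paralogs of the ribosome part more often than other genes was therefore not tested. In 11 of the 15 the 6 dehydrated libraries did not overlap the 6 control libraries. By mean FPKM in the 6 control libraries, the less abundant paralog fell relative to its partner in 12 of the 15, and the more abundant one in 3 (RPS6A against RPS6B, RPL4D against RPL4A, RPS4B against RPS4A). By the CPM ratio itself the count was 11, since RPL15B and RPL15A, at 266 and 269 FPKM, are nearly equal and change places.

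The S18 family shows such a parting between genes for 1 and the same protein: the translated sequences of RPS18A (AT1G22780), RPS18B (AT1G34030) and RPS18C are identical over 152 residues, and no 49-base window is shared between their transcripts. RPS18A, known as PFL, had 112, 152 and 125 FPKM in WT dehydrated, against 174, 175 and 172 FPKM in WT control libraries. Its values were 103, 112 and 115 FPKM in cost1 dehydrated, against 153, 154 and 184 FPKM in cost1 control libraries. All its dehydrated libraries lay below all its control libraries. RPS18B had 96.9, 116 and 119 FPKM in WT dehydrated, against 158, 161 and 147 FPKM in WT control libraries. For cost1, RPS18B was at 90.5, 79.4 and 92.7 FPKM in dehydrated, against 146, 144 and 156 FPKM in control libraries. The same held for RPS18B, while the libraries of RPS18C overlapped. RPS18A changed by −0.27 ± 0.13 (SE, adjusted p = 0.0963) in WT, not called, and −0.42 ± 0.13 (SE, adjusted p = 0.0162) in cost1, and RPS18B by −0.35 ± 0.11 (SE, adjusted p = 0.022) and −0.62 ± 0.11 (SE, adjusted p = 0.000727). The share of RPS18C in the FPKM of the 3 genes was 46.6% ± 1.63 in WT dehydrated against 40.6% ± 1.04 in WT control libraries, and 47.3% ± 1.7 in cost1 dehydrated against 39.4% ± 1.71 in cost1 control libraries (SD, n = 3 each). The log2 ratio of RPS18B to RPS18C changed by −0.48 (exact permutation test, p = 0.005, adjusted p = 0.00833), and that of RPS18A to RPS18C by −0.35 (exact permutation test, p = 0.005, adjusted p = 0.00833), while RPS18B against RPS18A changed by −0.13 (exact permutation test, p = 0.105, adjusted p = 0.124) and did not pass.

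In the S5 family, whose protein sits at the exit side of the messenger RNA channel, RPS5A (AT3G11940), the gene of the minute-like mutant AML1, had 261, 308 and 285 FPKM in WT dehydrated, against 344, 349.7 and 343 FPKM in WT control libraries. Dehydrated cost1 libraries had 239, 220.5 and 254 FPKM of RPS5A, against 331, 295 and 338 FPKM in cost1 control libraries. RPS5A changed by −0.14 ± 0.10 (SE, adjusted p = 0.305) in WT and −0.28 ± 0.10 (SE, adjusted p = 0.0385) in cost1, the second a call lost in 13 of the alternative fits. The share of RPS5B in the FPKM of the pair was 22.6% ± 1.25 in WT dehydrated against 29.6% ± 0.964 in WT control libraries, and 24.4% ± 0.441 in cost1 dehydrated against 29.3% ± 1.12 in cost1 control libraries (SD, n = 3 each). Its log2 ratio to RPS5A changed by −0.44 (exact permutation test, p = 0.005, adjusted p = 0.00833), with every dehydrated library below every control library.

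In the S4 family the 3 proteins are 98.5% to 99.6% identical. RPS4B (AT5G07090) had 185, 226 and 203 FPKM in WT dehydrated, against 284, 307 and 285 FPKM in WT control libraries. The cost1 dehydrated libraries had 182, 139.7 and 180.0 FPKM of RPS4B, against 289, 249 and 279 FPKM in cost1 control libraries. No dehydrated library reached a control library, and RPS4B changed by −0.36 ± 0.12 (SE, adjusted p = 0.025) in WT and −0.56 ± 0.12 (SE, adjusted p = 0.0023) in cost1. The share of RPS4A in the 3 genes was 32.8% ± 0.926 in WT dehydrated against 29.1% ± 0.189 in WT control libraries, and 35.9% ± 1.74 in cost1 dehydrated against 27.4% ± 1.45 in cost1 control libraries (SD, n = 3 each). The log2 ratio of RPS4A to RPS4B changed by 0.39 (exact permutation test, p = 0.005, adjusted p = 0.00833) and that of RPS4D to RPS4A by −0.51 (exact permutation test, p = 0.005, adjusted p = 0.00833), both without overlap. RPS4D against RPS4B changed by −0.11 (exact permutation test, p = 0.04, adjusted p = 0.05) and did not pass.

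Among large-subunit pairs, the share of RPL3B in the FPKM of the L3 pair was 3.81% ± 0.513 in WT dehydrated against 5.37% ± 0.368 in WT control libraries, and 4.09% ± 0.798 in cost1 dehydrated against 6.02% ± 0.503 in cost1 control libraries (SD, n = 3 each). Its log2 ratio to RPL3A changed by −0.55 (exact permutation test, p = 0.005, adjusted p = 0.00833). The share of RPP0C in the FPKM of the 3 P0 genes was 5.7% ± 0.888 in WT dehydrated against 7.46% ± 0.172 in WT control libraries, and 5.34% ± 1.25 in cost1 dehydrated against 8.29% ± 0.559 in cost1 control libraries (SD, n = 3 each). Its log2 ratio to RPP0B changed by −0.57 (exact permutation test, p = 0.005, adjusted p = 0.00833), and that of RPP0A to RPP0B by −0.44 (exact permutation test, p = 0.005, adjusted p = 0.00833), which no longer passed with 5 CPM added in place of 0.5. The log2 ratio of RPL8C to RPL8A changed by −0.36 (exact permutation test, p = 0.005, adjusted p = 0.00833). The 5 pairs that did not pass were RPS18B/RPS18A, RPS8B/RPS8A, RPL18C/RPL18B, RPS4D/RPS4B and RPP0A/RPP0C.

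**Figure D4:**
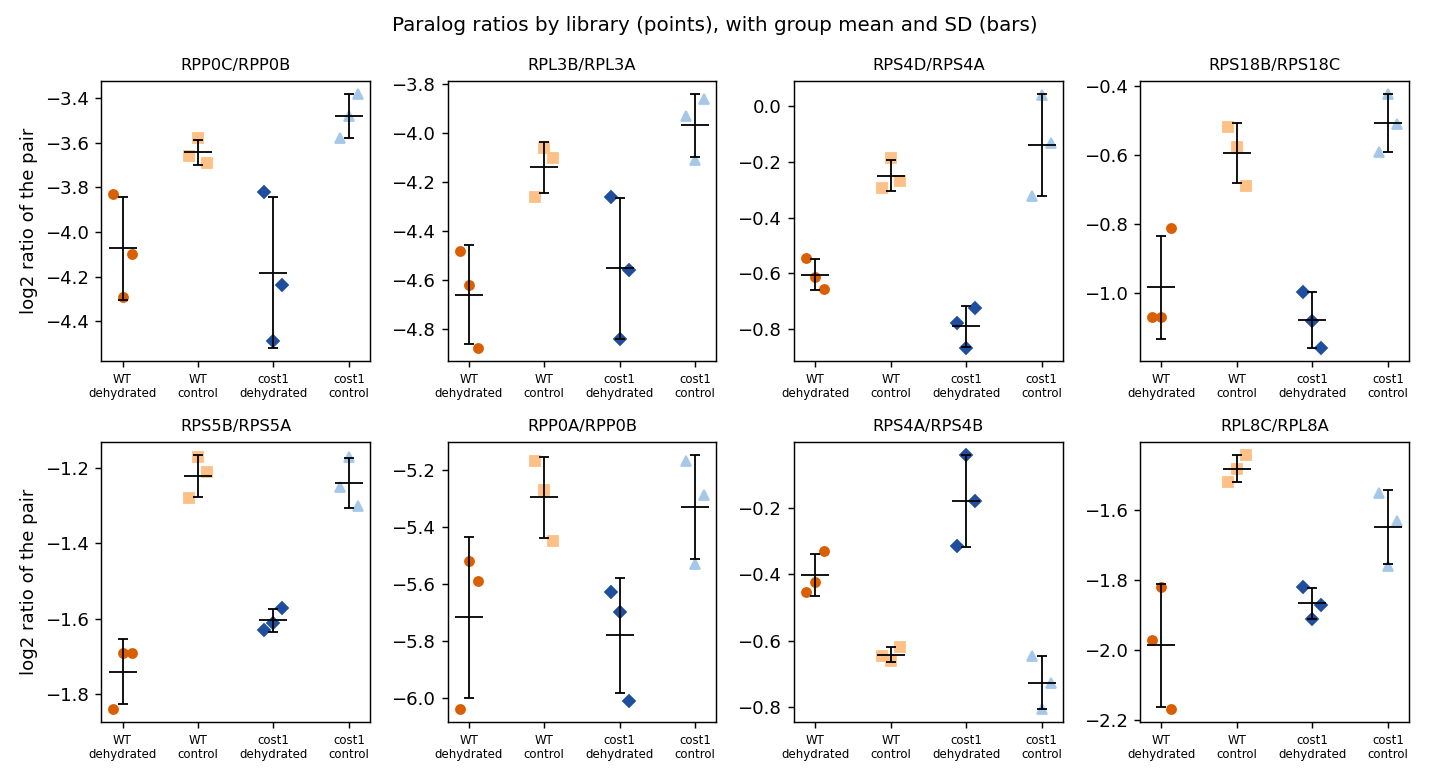
Log2 ratio of CPM plus 0.5 within 8 paralog pairs in each library, with the group mean and SD, for the 8 pairs past the threshold with the largest change. In 7 pairs the ratio is lower in dehydrated than in control libraries, by 0.36 to 0.57 on average, and in RPS4A/RPS4B it is higher by 0.39.

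Changes were more negative among the less abundant of the 44 genes. The 4 tested genes with a mean under 50 FPKM (RPP0A, RPL11A, RPL3B and RPP0C) had a median log2 change of −0.76 in WT and −0.95 in cost1, against −0.31 and −0.43 for the other 40. Across the 44 genes, Spearman's rho between the mean FPKM in the 6 control libraries and the log2 change was 0.59 in WT and 0.50 in cost1. This is a description across genes that share the same libraries, and genes are not independent replicates. No such value is given for all genes, so whether the relation is particular to these 44 was not tested.

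The start-site regions of these genes are known for 2 short sequences, the telo box (AAACCCTA) and the site II element (TGGGCC or TGGGCT), through which ribosomal protein genes are tied to growing cells. Both strands of the 250 bases upstream of each annotated start were searched in the TAIR10.1 genome. A site II match was present in 33 of the 45 genes, or 73.3%, in 66.9% of 172 other cytosolic ribosomal protein genes and in 19.2% of 27443 genes with a start. A telo box was present in 6 of the 45, or 13.3%, in 20.3% of the other ribosomal protein genes and in 4.49% of all. The 33 genes with a site II match had a median log2 change of −0.32 in WT and −0.40 in cost1, against −0.39 and −0.48 in the 11 tested genes without 1. In WT 20 of the 33 and 7 of the 11 were lower, and in cost1 26 and 9.

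Printed 5′ to 3′, ending at the base before the start, with matches in capitals on whichever strand they lie (AGCCCA and GGCCCA are site II read on the other strand, TAGGGTTT the telo box), are the windows of RPS5A at chr3:3779546-3779795 (minus strand), RPS5B at chr2:15649472-15649721 (minus strand), RPS18B at chr1:12371555-12371804 (minus strand), RPS18C at chr4:6173462-6173711 (plus strand), RPS4A at chr2:7546190-7546439 (plus strand) and RPS4B at chr5:2202114-2202363 (plus strand). They were chosen, after their values were seen, as examples from the 3 small-subunit families described pair by pair above; other pairs whose ratio moved are not shown.
RPS5A: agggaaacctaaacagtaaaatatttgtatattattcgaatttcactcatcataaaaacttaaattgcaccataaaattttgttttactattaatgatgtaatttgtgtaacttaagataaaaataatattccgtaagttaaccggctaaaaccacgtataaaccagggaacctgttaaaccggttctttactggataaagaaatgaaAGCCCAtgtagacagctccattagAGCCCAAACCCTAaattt
RPS5B: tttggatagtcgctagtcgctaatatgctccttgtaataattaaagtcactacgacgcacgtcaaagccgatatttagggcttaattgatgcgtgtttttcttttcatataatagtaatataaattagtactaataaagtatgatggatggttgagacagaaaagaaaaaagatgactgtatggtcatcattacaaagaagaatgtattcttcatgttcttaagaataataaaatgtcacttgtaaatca
RPS18B: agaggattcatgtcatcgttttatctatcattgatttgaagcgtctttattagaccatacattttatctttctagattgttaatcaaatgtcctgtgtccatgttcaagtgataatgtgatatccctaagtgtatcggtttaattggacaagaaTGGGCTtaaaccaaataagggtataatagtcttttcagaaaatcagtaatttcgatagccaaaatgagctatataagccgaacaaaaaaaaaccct
RPS18C: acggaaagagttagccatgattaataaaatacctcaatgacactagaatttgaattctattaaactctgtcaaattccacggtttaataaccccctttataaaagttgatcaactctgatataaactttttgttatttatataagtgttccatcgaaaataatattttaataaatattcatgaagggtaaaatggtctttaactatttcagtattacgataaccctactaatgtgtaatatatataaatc
RPS4A: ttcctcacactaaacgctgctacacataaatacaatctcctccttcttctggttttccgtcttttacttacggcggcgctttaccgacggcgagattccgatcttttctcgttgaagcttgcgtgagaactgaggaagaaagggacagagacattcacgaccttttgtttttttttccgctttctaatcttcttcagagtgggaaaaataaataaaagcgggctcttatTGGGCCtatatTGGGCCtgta
RPS4B: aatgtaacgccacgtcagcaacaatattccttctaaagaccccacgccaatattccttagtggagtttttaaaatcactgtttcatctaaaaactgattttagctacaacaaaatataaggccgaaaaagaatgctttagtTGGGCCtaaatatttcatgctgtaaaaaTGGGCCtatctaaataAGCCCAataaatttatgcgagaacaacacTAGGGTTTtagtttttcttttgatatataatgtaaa
RPS5A, which kept more of its level, has 2 site II matches and a telo box whose first base is the last base of the second of them, and RPS5B has no match of either kind. RPS18B, which fell, has 1 site II match and RPS18C, which did not pass, has none. RPS4A has 2 site II matches, and RPS4B has 3 and a telo box. Over all 15 pairs whose ratio moved, the gene that kept more of its level had more site II matches than its partner in 7, fewer in 6 and the same number in 2, RPS18A/RPS18C with none in either gene being 1 of these. A match is a description of the letters, and no match says only that these letters are absent from this window.

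Between genotypes, none of the 44 genes passed the test. In control seedlings, cost1 over WT, 0 were higher and 0 lower with edgeR and with DESeq2, 0 had an unadjusted p under 0.05 (4.75% of all genes tested had one), and 0.0159% of all genes tested were higher and 0.00532% lower. The median log2 difference of the 44 was −0.10, with 42 of 44 below 0, against 0.01 over all genes tested. Under dehydration 0 were higher and 0 lower, again with both tools, where 0.0319% of all genes tested were higher and 0.00532% lower. There the median was −0.21, a difference of −13.4%, against a median of 0.01 over all genes tested, and all 44 were below 0 (range −0.42 to −0.06). An unadjusted p under 0.05 was found for 13 of the 44, and for 8.7% of all genes tested. The most negative were RPP0A (AT2G40010) at −0.42 ± 0.23 (SE, adjusted p = 0.624), RPS6A at −0.40 ± 0.12 (SE, adjusted p = 0.505) and RPP0C at −0.38 ± 0.15 (SE, adjusted p = 0.54). Of the 31 plastid ribosomal protein genes tested, all 31 had an unadjusted p under 0.05 in the same comparison, where 8.7% of all genes tested had one, with a median of −0.36, and 0 passed adjustment.

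The 45 genes held 0.739% to 0.865% of the counts in cost1 dehydrated and 0.813% to 1.00% in WT dehydrated libraries, so those groups overlapped. The size rested on single libraries: the median was −0.29, with 28 genes at an unadjusted p under 0.05, without WT dehydrated replicate 1, and −0.15, with 4 such genes, without WT dehydrated replicate 2. Over all 12 libraries left out in turn, 2 to 28 genes had such a p and 0 were called. For the interaction, meaning the log2 change in cost1 less the one in WT, 0 were higher and 0 lower with edgeR and with DESeq2, 0 had an unadjusted p under 0.05 (3.67% of all genes tested had one), and 0% of all genes tested were higher and 0% lower. Its median over the 44 was −0.11, against −0.02 over all genes tested, and it ran from −0.42 for RPP0C to 0.13 for RPL8C. No paralog pair had a ratio that differed between genotypes (0 of 20, and 0 at an unadjusted p under 0.05; lowest p 0.205).

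The other cytosolic ribosomal protein genes gave the background to these values. Of 161 tested, 101 were lower and 2 higher in WT and 121 lower and 2 higher in cost1, with medians of −0.38 and −0.46. The 2 that rose were AT1G29970 and AT1G66580, the second an L10-family paralog of RPL10A, at a log2 change of 1.43 ± 0.17 (SE, adjusted p = 5.2e-05) in WT and 1.60 ± 0.17 (adjusted p = 2.18e-05) in cost1. It shares part of its sequence with RPL10A, whose windows overlap it by 3.82%. Further L11 genes outside the 45 also fell: AT3G58700 changed by −0.72 (adjusted p = 0.00838) in WT and −0.74 (adjusted p = 0.00629) in cost1, and AT5G45775 by −0.64 (adjusted p = 0.00583) and −0.90 (adjusted p = 0.000623). AT4G10450, a paralog of RPL9C with a mean of 37 FPKM, changed by −1.04 (adjusted p = 0.000179) in WT and −1.17 (adjusted p = 8e-05) in cost1. These were the steeper falls of their families: AT4G18730 of L11 changed by −0.35 in WT and −0.56 in cost1, and AT1G33120 of L9 by −0.41 and −0.36. Of the 161 tested, 58 were not called in WT and 38 not in cost1. Among those that belong to families of the 45 genes, the ones called in neither genotype were AT3G13580 of L7 (−0.10 and −0.05), AT3G53870 of S3 (−0.19 and −0.27) and AT5G27700 of S21 (−0.25 and −0.11).

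Ribosome biogenesis factors, which process ribosomal RNA in the nucleolus, had a lower median than the ribosomal protein genes. In WT 17 of 28 were lower and 0 higher (median −0.65), and 18 were lower and 1 higher in cost1 (median −0.67). Among them were FIB2 (AT4G25630), a fibrillarin, at −1.91 ± 0.20 (adjusted p = 1.98e-05) in WT, and NOP56 (AT1G56110), its partner in box C/D particles, at −1.27 ± 0.12 (adjusted p = 9.49e-06). Of 14 elongation factors, 3 were lower and 1 higher in WT and 7 lower and 1 higher in cost1, and of 19 initiation factors and poly(A)-binding proteins 5 were lower and 1 higher in WT and 7 and 1 in cost1. Of 31 plastid ribosomal protein genes, 6 were lower and 0 higher in WT (median −0.24) and 23 and 0 in cost1 (median −0.41). Of all genes tested, 20.6% were lower and 24.9% higher in WT, and 24.5% were lower and 26.4% higher in cost1. In WT, the counts lower in the elongation, initiation and plastid lists were near that share. Of the 9 regulators, 3 were higher and 2 lower in WT: the S6 kinase genes S6K2 (AT3G08720) and S6K1 (AT3G08730) changed by 2.70 ± 0.27 (adjusted p = 1.23e-05) and 1.78 ± 0.23 (adjusted p = 7.58e-05), and the ribosome-bound scaffold genes RACK1B (AT1G48630) and RACK1C (AT3G18130) by −1.28 ± 0.12 (adjusted p = 8.77e-06) and −1.12 ± 0.13 (adjusted p = 3.29e-05).

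Markers of dividing and meristem cells, where ribosomal protein genes are most active, fell in sum with dehydration, though not each of them did. Their summed level was 46.6 to 48.3 FPKM in WT dehydrated against 71.9 to 85.3 FPKM in WT control libraries, and 27.5 to 46.9 FPKM in cost1 dehydrated against 74.2 to 78.6 FPKM in cost1 control libraries. Of the 6 tested, 3 were lower and 1 higher in WT and 4 lower and 1 higher in cost1. CYCB1;1 (AT4G37490) was called in neither, at 0.08 (adjusted p = 0.811) in WT and −0.50 (adjusted p = 0.107) in cost1. KNOLLE (AT1G08560) was not called in WT, at −0.33 (adjusted p = 0.0527), and was lower in cost1, at −0.77 (adjusted p = 0.000533). PCNA1 (AT1G07370), the replication clamp, changed by −1.63 ± 0.25 (adjusted p = 0.000265) in WT, and WOX5 (AT3G11260), of the root quiescent centre, by 4.27 ± 0.73 (adjusted p = 0.000604). The WOX5 change rests on a very low control level, with group means of 4.92 FPKM in WT dehydrated and 0.26 FPKM in WT control libraries. The 4 leaf cell markers summed to 15721 to 20480 FPKM in WT dehydrated against 24202 to 28214 FPKM in WT control libraries, and 12624 to 19218 FPKM in cost1 dehydrated against 22787 to 31884 FPKM in cost1 control libraries, with 0 of 4 called in WT and 3 lower in cost1. Root markers summed to 9.54 to 17.1 FPKM in WT dehydrated against 22.9 to 26.7 FPKM in WT control libraries, and 11.4 to 15.5 FPKM in cost1 dehydrated against 24.4 to 27.1 FPKM in cost1 control libraries, with both tested markers, SCR and SHR, lower in both genotypes. Most of that sum was SCR and SHR. The root markers PIN2 and CASP1 had group means of only 0.06 to 0.737 FPKM and were not tested. Seed storage markers summed to 0.19 to 1.27 FPKM in WT dehydrated against 1.46 to 3.49 FPKM in WT control libraries, and to 2.18 to 11.1 FPKM in cost1 dehydrated against 2.06 to 186.8 FPKM in cost1 control libraries, the highest being replicate 3. Without that library 28 of the 44 genes were lower in cost1. The part of these cell types in the changes of the ribosomal protein genes was not tested.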

How the data were processed

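Poly(A) RNA of whole seedlings was sequenced in 12 libraries of 12320257 to 13028160 filtered reads of 49 bases. Per the file headers, the authors deposited an expected count and an FPKM value for each gene above 0 in each library. The submitters' processing notes name STAR 2.4.0, HTSeq 0.6.0, DESeq2 and the TAIR10 genome; the sources used here do not give the step that each served. Gene lengths matched the TAIR10.1 annotation in all 11153 single-transcript genes compared.

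Expected counts were rounded, filtered with filterByExpr to 18809 genes, scaled by TMM and fitted in 1 model of the 4 groups (8 residual degrees of freedom) with edgeR 4.0.16 in R 4.3.3. The quasi-likelihood test's p-values had Benjamini-Hochberg adjustment across the 18809 genes, with a threshold of 0.05. DESeq2 1.42.0, and limma 3.58.1 on log2(FPKM + 0.1) or log2(FPKM + 1), were alternatives, as were RLE factors, no scaling, no filter, leaving out each library, the replicate number as a block, and a fit of the compared groups; that last fit with the block was added after seeing the data. The scripts were tested on simulated data. The libraries held 5884728 to 6223687 expected counts each.

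Paralog ratios were tested by exact permutation within genotype, or within treatment, adjusted over the 20 pairs. Values in every library are given for the 5 genes with the largest called change in each response, for both genes of the 8 pairs with the largest change of ratio, and for the 3 highest and 3 lowest genes by mean FPKM; a few others were added. In other lists the genes with the smallest p in WT were named, and their paralogs were chosen after their values were seen. The members and lists were chosen with earlier results of these data known.

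Same-numbered libraries deviated together (correlation over 0.1 in all 3 pairs) in cost1 alone, at 0.171, 0.381 and 0.177, against 0.043, 0.01 and 0.025 in WT. Nothing in the labels says what the numbers share. Reference sequence and annotation are RefSeq's TAIR10.1.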

Additional observations from a re-analysis of the deposited data

How the results depend on the processing

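The number of genes lower after dehydration was 27 in WT and 35 in cost1, and the direction of the median was negative under every alternative run. Leaving out 1 library gave 15 to 31 genes in WT and 28 to 38 in cost1. The WT count was 17 without WT control replicate 2, 16 without WT control replicate 3 and 15 without WT dehydrated replicate 1; the cause was not tested. The counts in WT and cost1 were 29 and 37 with DESeq2, 27 and 33 with RLE factors, 22 and 30 with no filter, 39 and 42 with no scaling, and 38 and 42 on log2(FPKM + 0.1). The shares of all genes lower in these alternative fits are not given here. With the replicate block they were 25 and 34, and with the replicate block in a fit of the compared groups 28 and 25, against 27 and 28 in that fit without it. Genes called lower in every fit run numbered 15 in WT and 24 in cost1. Among genes with values given by library, the WT call was lost in 9 alternative fits for RPP0B, 7 for RPL8A and 5 for RPS4B. It was lost in 3 each for RPS6A and RPS18B. The other way, RPL10A gained a call in 3 fits in WT and 6 in cost1, and in WT RPS8A gained one in 3 and RPS5A in 1.

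Of the 20 paralog pairs, 15 moved with dehydration, 14 to 16 when 1 library was left out, 15 with the replicate block, and 14 with 5 CPM added. RPL15B/RPL15A lost its call with the replicate block and without WT control replicate 1 or 3 or WT dehydrated replicate 1 or 3, and RPP0A/RPP0B with 5 CPM added. No pair and no gene was called between genotypes under any alternative run. Reads shared between paralogs or overlapping genes limit RPL9C, RPP0A, RPL8C and RPL18C most.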
